A study of Mus musculus with 6 samples.

Results

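Keratins are the intermediate filament proteins of epithelia, and their transcripts were followed here in fully grown mouse oocytes in which Rnf2 was deleted on a Ring1-null background, the genes for the catalytic core of Polycomb repressive complex 1. The family was taken as every gene of the deposited expression table whose symbol is Krt followed by a number and at most 1 letter, which left out the keratin-associated proteins. This gave 52 keratin genes, 28 of type I and 24 of type II, among 24028 genes. Membership was chosen by the symbol alone, but the family was proposed with results of the same comparison in view, among them the large rise of Krt79. The calls given for keratins are therefore a description, and nothing is read from how many there are.

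Each keratin filament is built from a type I (acidic) and a type II (basic) protein, and each epithelium has its own pairs. In the mouse the type I genes lie in a cluster on chromosome 11 and the type II genes in a cluster on chromosome 15, where the type I gene Krt18 also lies. Polycomb repressive complex 1 places ubiquitin on histone H2A and holds many developmental genes silent, and Ring1 and Rnf2 encode its E3 ligases.

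The dKO group was Ring1 -/-; Rnf2 f/f; Zp3-cre, and the control group was Ring1 -/-; Rnf2 f/f with no Cre, so both groups carried the Ring1 null allele on both chromosomes. Zp3-cre acts in growing oocytes. Females were about 3 months old, on a mixed FVB, 129/Sv and C57BL/6J background, and each of the 3 dKO and 3 control libraries held RNA of 15 germinal vesicle oocytes pooled from a single female, stripped of granulosa cells by pipetting and amplified before library preparation. An effect of the Cre transgene itself, or of the index sequence, which was one for all dKO libraries and another for all controls, cannot be told apart from that of Rnf2 loss.

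Levels are given in FPKM, a fragment count corrected for the size of the library and the length of the transcript, so they can be compared between genes. Rnf2, the gene the Cre removes, had 14.8, 8.45 and 5.31 FPKM in dKO libraries 1 to 3, against 53.7, 46.8 and 48.2 FPKM in controls 1 to 3 (log2 change -2.37 ± 0.30 SE, limma, adjusted p = 0.000696). Ring1 was at or under 0.240 FPKM in the dKO libraries and at or under 0.0973 FPKM in the controls. All 10 oocyte markers examined passed the filter described next, and their summed level was 5029 to 6970 FPKM in dKO libraries and 8758 to 9163 FPKM in controls. Of the 10, 3 (Bmp15, Ooep and Kit) were called lower by limma and none higher, beside 7.04% and 14.0% of all tested genes. At an unadjusted p under 0.05, 8 were lower and none higher. The median log2 change of the 10 was -0.61, beside -0.019 over all tested genes. Without any 1 of the controls the 3 calls of Bmp15, Ooep and Kit were lost (limma, adjusted p = 0.0515 to 0.155). Without dKO library 1 those of Bmp15 and Ooep were lost (0.0524 and 0.0682). Bmp15 and Ooep also lost theirs with no filter (0.104 and 0.115) and under quantile normalization (0.257 and 0.0777). Bmp15 lost it too when replicate number was added to the fit (limma, adjusted p = 0.0740). Genes at 1 FPKM or more numbered 11188 to 11717 in dKO libraries and 10251 to 10524 in controls. Absolute depth is unknown. Relative depth, read from the steps between low values, was 0.661, 0.805 and 1.08 in dKO libraries 1 to 3 and 1, 0.903 and 1.02 in controls 1 to 3, so low values are least precise in dKO library 1. The dKO libraries correlated with each other at 0.928 to 0.948 and the controls at 0.982 to 0.983. In pooled oocytes, fewer cells with a transcript and less of it per cell cannot be told apart.

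Most keratins were barely present in either group. Of the 52, 6 were listed at 0 in all 6 libraries (Krt9, Krt14, Krt16, Krt19, Krt39 and Krt40, all of type I), and a further 32 were above 0 somewhere but never reached 1 FPKM. The highest value among those 32 was 0.979 FPKM, for the suprabasal epidermal keratin Krt10 in dKO library 1. Only 14 keratins reached 1 FPKM in any library, and 11 passed the filter of at least 1 FPKM in at least 3 libraries that was used for testing. Of these 11, 3 (Krt8, Krt27 and Krt79) had no control library at 1 FPKM and so passed on their dKO libraries alone, which forces a difference. Krt71, Krt72, Krt73 and Krt76 each had at least 1 control under 1 FPKM, so they too passed only with the help of their dKO libraries. Krt12, Krt25, Krt80 and Krt84 had every control at 1 FPKM or more.

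Of the 11 tested keratins, 8 were called higher in dKO oocytes (2 of type I, 6 of type II), none lower, and 3 had no call at an adjusted p of 0.05 by limma across 11334 genes. At an unadjusted p under 0.05, 1 keratin was lower, Krt12. Over all genes tested, 14.0% were called higher and 7.04% lower. The median log2 change of the 11 was 1.65, beside -0.019 over all tested genes, but a filter that some members passed only where they were high makes that median no measure of the family. With no filter, over the 46 keratins above 0, 9 were called higher and none lower (1 lower at an unadjusted p of 0.05), where 9.88% of 20310 genes were called higher and 2.68% lower. Their median change was then 0.11, beside 0.029 over all genes above 0. The lowest dKO library exceeded the highest control for 21 of the 46 (10 of type I, 11 of type II), and the reverse held for 1, Krt12. Over all genes above 0, these shares were 22.3% and 12.5%.

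**Figure D1:**
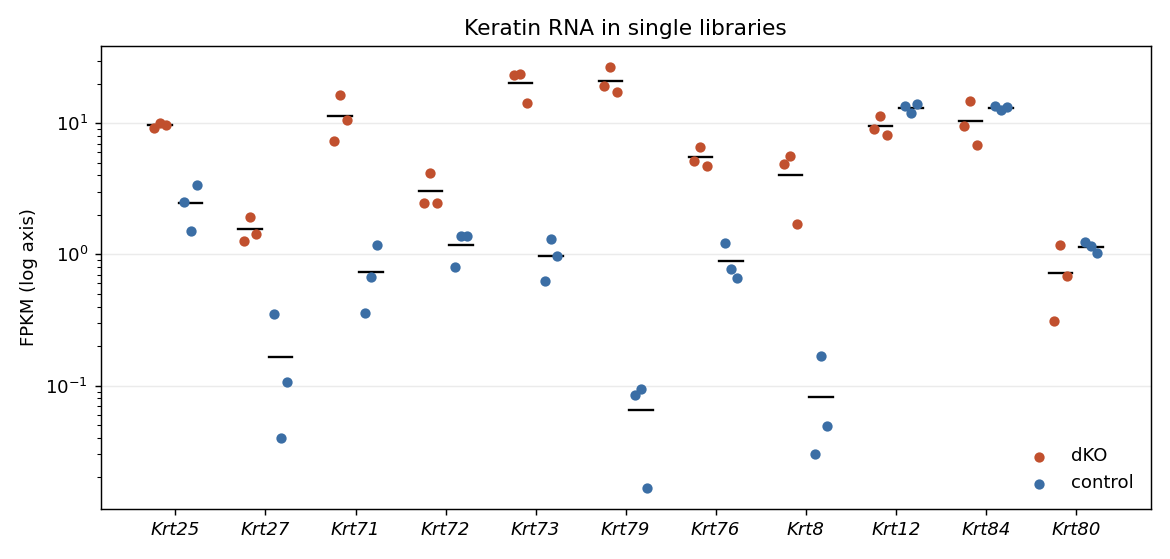
FPKM of the 11 keratins that passed the filter (log axis), with 1 point for each of 3 dKO and 3 control libraries and a bar at each group mean. The groups are separate for 9 genes, with dKO above for 8 and dKO below for Krt12, while those of Krt84 and Krt80 overlap. The filter itself fixed the separation of Krt8, Krt27 and Krt79.

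The largest group of these transcripts were keratins of the inner root sheath, the layer that moulds the growing hair. Krt73, a type II keratin of the sheath cuticle, had 23.4, 23.6 and 14.1 FPKM in dKO libraries 1 to 3, against 0.627, 1.31 and 0.970 FPKM in controls 1 to 3. Every dKO library lay far above every control, a difference of 3.42 ± 0.26 log2 units (SE, here and throughout; limma, adjusted p = 5.08e-05). Krt71, the type II keratin found through all layers of the sheath, had 7.29, 16.4 and 10.6 FPKM in dKO libraries against 0.359, 0.669 and 1.19 FPKM in controls. It differed by 2.80 ± 0.31 log2 units (limma, adjusted p = 0.000331), and the dKO libraries differed among themselves more than for Krt25. Krt25, a type I keratin of the sheath, had 9.15, 10.1 and 9.64 FPKM in dKO libraries and 2.51, 1.51 and 3.39 FPKM in controls. The dKO values stood close together, and the change was 1.65 ± 0.24 log2 units (limma, adjusted p = 0.00154). Krt25 was thus already present in control oocytes at a level that Krt71 and Krt73 did not reach there.

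Krt27, a further type I keratin of the sheath, was lower throughout, at 1.28, 1.94 and 1.43 FPKM in dKO libraries and 0.349, 0.0400 and 0.106 FPKM in controls. The groups did not overlap, which was fixed once Krt27 passed the filter on its dKO libraries alone. The change was 1.13 ± 0.18 log2 units (limma, adjusted p = 0.00266). Krt72, a type II keratin of the sheath cuticle, had 2.47, 4.16 and 2.45 FPKM in dKO libraries against 0.805, 1.39 and 1.37 FPKM in controls. Its log2 change of 0.87 ± 0.23 was the smallest of those called (limma, adjusted p = 0.0292). The call for Krt72 was lost with no filter (adjusted p = 0.0814), under quantile normalization (0.129), without dKO library 2 (0.0538) and without control 1, 2 or 3 (0.127, 0.0728 and 0.0729).

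The other sheath keratins were faint. Krt74, which RefSeq lists as a transcribed pseudogene in the mouse, was at 0.316, 1.05 and 0.536 FPKM in dKO libraries against 0.0232, 0 and 0 FPKM in controls, and did not pass the filter. With no filter its log2 change was 0.67 ± 0.16 (limma, adjusted p = 0.0471). The type I keratins Krt26 and Krt28 were at 0.0834 to 0.397 FPKM and 0.133 to 0.420 FPKM in dKO libraries, against 0 to 0.0537 FPKM and 0 to 0.0876 FPKM in controls, and had no call. In all 8 keratins placed in the sheath the dKO libraries lay above the controls, although this placing was made with the values known. The same held for 21 of the 46 keratins above 0 and for 22.3% of all genes above 0. The 8 sheath keratins summed to 44.3, 57.7 and 39.4 FPKM in dKO libraries 1 to 3, against 4.82, 4.92 and 7.07 FPKM in controls 1 to 3.

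The promoters of these genes are shown because several members moved together and most of these hold the letters of a TATA box. Each line gives 250 bases before and 50 after the RefSeq transcript start (build GRCm38.p6), read 5′ to 3′ on the gene's own minus strand. Capitals mark the letters TATAAA, the core of a TATA box. Krt73, Krt71 and Krt25 are sheath keratins that rose, Krt79 rose without the element, and Krt12 carries it and was not called.
Krt73 (chr15:101802311-101802610): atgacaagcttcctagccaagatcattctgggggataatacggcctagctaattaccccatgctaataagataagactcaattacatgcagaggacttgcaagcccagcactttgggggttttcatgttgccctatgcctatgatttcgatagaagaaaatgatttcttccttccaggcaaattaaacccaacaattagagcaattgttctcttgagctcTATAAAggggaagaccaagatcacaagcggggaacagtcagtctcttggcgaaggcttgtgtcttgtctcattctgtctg
Krt71 (chr15:101743048-101743347): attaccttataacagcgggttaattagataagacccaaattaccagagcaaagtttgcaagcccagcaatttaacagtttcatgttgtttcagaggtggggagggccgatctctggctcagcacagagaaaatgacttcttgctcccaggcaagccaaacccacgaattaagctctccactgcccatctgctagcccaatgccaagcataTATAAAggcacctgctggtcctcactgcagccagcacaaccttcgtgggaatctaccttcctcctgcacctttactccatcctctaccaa
Krt25 (chr11:99322902-99323201): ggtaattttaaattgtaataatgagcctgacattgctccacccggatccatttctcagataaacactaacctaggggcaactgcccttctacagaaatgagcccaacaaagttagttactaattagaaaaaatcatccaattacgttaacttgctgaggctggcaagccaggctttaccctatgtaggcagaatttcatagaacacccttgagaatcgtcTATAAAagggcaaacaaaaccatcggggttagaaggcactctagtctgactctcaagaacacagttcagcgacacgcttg
Krt79 (chr15:101940275-101940574): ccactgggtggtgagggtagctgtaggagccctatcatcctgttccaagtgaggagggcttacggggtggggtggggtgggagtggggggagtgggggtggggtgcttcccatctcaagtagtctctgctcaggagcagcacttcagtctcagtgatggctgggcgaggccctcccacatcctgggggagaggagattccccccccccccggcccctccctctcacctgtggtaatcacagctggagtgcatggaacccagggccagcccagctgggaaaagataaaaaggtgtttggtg
Krt12 (chr11:99422210-99422509): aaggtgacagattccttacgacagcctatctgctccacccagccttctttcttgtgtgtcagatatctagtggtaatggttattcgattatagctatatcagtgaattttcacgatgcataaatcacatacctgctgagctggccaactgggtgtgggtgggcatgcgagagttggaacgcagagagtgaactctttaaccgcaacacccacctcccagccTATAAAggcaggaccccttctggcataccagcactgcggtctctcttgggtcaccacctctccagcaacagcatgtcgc

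RefSeq promoters were found for 35 of the 52 keratins, 36 promoters in all because Krt13 has a pair. TATAAA, searched on both strands, stood in 52.8% of the keratin promoters and in 13.6% of all 32851 RefSeq promoters. With the first base after the 250 upstream bases numbered 0, the element began at -30 in Krt73, -40 in Krt71, -30 in Krt25, -29 in Krt76, -15 in Krt27 and -29 in Krt12. It was present in 7 of the 8 keratins called higher and in 12 of the other 27 with a promoter. These counts take matches on either strand and anywhere in the window, so they do not compare TATA boxes. Among the called, it overlapped the start in Krt8 and stood on the opposite strand at -203 in Krt72. Among the others, it stood on the opposite strand at -206 in Krt84 and past the start, at 19, in Krt42. Krt20, Krt28, Krt31 and Krt40, none called higher, held it at -30 or -29. Keratin promoters held a median of 5 CpG dinucleotides, against 7 over all RefSeq promoters, and the 8 called keratins had the same median of 5 as the other 27. The letters CTTTGA, the core read by LEF and TCF factors, were in 22.2% of keratin promoters and 16% of all promoters. The letters GCCNNNGGC, with N any base, were in 16.7% and 16.6%. Among the 8 called keratins, Krt76 alone held CTTTGA and Krt72 alone held GCCNNNGGC. These are matches of letters in a fixed window and say nothing of binding.

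Outside the sheath, Krt79 had the largest change, which was also the largest of all 11 tested keratins. Krt79, a type II keratin of the upper hair follicle and the sebaceous duct, had 19.4, 26.8 and 17.2 FPKM in dKO libraries against 0.0850, 0.0940 and 0.0167 FPKM in controls. It was all but absent from every control and among the most abundant keratins in every dKO library, with a log2 change of 4.35 ± 0.22 (limma, adjusted p = 1.76e-05). Krt79 passed the filter on its dKO libraries alone, so its groups could not overlap. None of its transcript sequence is shared with another annotated gene over stretches of 50 bases. The genes on either side of it, Krt4 and Krt78 of stratified epithelia, were faint in both groups. Krt4 was at 0.0504 to 0.231 FPKM in dKO libraries and at 0 in every control. Krt78 was at 0.0735 to 0.181 FPKM in dKO libraries and 0 to 0.0597 FPKM in controls. In both, every dKO library lay above every control, as in 22.3% of all genes above 0, and neither was called with no filter.

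Krt76, a type II keratin of the oral mucosa, had 5.19, 6.55 and 4.74 FPKM in dKO libraries against 1.22, 0.777 and 0.658 FPKM in controls. The groups stood apart, with a log2 change of 1.79 ± 0.21 (limma, adjusted p = 0.000501). Krt8, the type II keratin of simple epithelia and of the early embryo, had 4.89, 5.58 and 1.71 FPKM in dKO libraries against 0.0301, 0.167 and 0.0492 FPKM in controls. dKO library 3 was the low one of its group but still above every control. That separation was fixed, since Krt8 passed the filter on its dKO libraries alone. The change was 2.13 ± 0.32 log2 units (limma, adjusted p = 0.00175). Of the Krt8 transcript, 29.7% of 50-base stretches also occur in other annotated transcripts, chiefly Krt8-ps, so its value may include reads of that copy.

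The type I partners of Krt8 were at or near 0. Krt18 was listed at 0.0407, 0 and 0 FPKM in dKO libraries and at 0.0807, 0 and 0 FPKM in controls, and Krt19 at 0 in all. Krt7, the other type II keratin of simple epithelia, was at 0.282, 0 and 0.258 FPKM in dKO libraries against 0, 0.0258 and 0.0685 FPKM in controls. Krt20, a type I keratin of the intestinal lining, reached 1.67 FPKM in dKO library 3 only, beside 0.366 and 0.162 FPKM in the other two and 0.298, 0.330 and 0.457 FPKM in controls. Its groups overlapped and it had no call with no filter.

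The keratins that were most abundant in control oocytes had no call in either direction. Krt12, the type I keratin of the corneal epithelium, had 8.99, 11.3 and 8.06 FPKM in dKO libraries against 13.5, 12.0 and 14.0 FPKM in controls. Every dKO library lay below every control, but the log2 change of -0.45 ± 0.19 had an adjusted p of 0.124 (limma). Of the Krt12 transcript, 42% of 50-base stretches are also annotated in A830036E02Rik, a gene on the opposite strand, and with the use of strand not stated the reads of each cannot be told apart. Krt84, a type II hard keratin of nail and tongue, had 9.48, 14.8 and 6.83 FPKM in dKO libraries against 13.5, 12.7 and 13.2 FPKM in controls. The groups overlapped through dKO library 2, and the change was -0.37 ± 0.25 log2 units (limma, adjusted p = 0.322). Without that library Krt12 and Krt84 were both called lower (log2 change -0.57 and -0.64, limma, adjusted p = 0.0481 and 0.0480). Krt12 was also called lower when each library was centred on its mean (adjusted p = 0.0420).

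Krt80, a type II keratin of many differentiating epithelia, had 0.310, 1.17 and 0.681 FPKM in dKO libraries against 1.25, 1.16 and 1.02 FPKM in controls, with a log2 change of -0.35 ± 0.21 (limma, adjusted p = 0.270). Its groups overlapped through dKO library 2, and it was called lower only under quantile normalization (adjusted p = 0.0179). Krt222, a type I-related gene at the edge of the chromosome 11 cluster, had 2.11, 1.93 and 0.798 FPKM in dKO libraries against 0.0762, 0.324 and 0.179 FPKM in controls. It missed the filter because dKO library 3 was under 1 FPKM, and with no filter its log2 change was 1.09 ± 0.24 (limma, adjusted p = 0.0368). All 11 tested keratins, called or not, were highest in dKO library 2 among the dKO libraries, and 7 were lowest in dKO library 3 and 4 in dKO library 1.

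The classical keratins of skin stayed near the floor of the data. The 8 placed in the epidermis (Krt1, Krt2, Krt5, Krt9, Krt10, Krt14, Krt15 and Krt77) summed to 1.24, 1.51 and 0.376 FPKM in dKO libraries against 0.519, 0.603 and 0.579 FPKM in controls, and none passed the filter. These include the pairs of the basal layer, Krt5 with Krt14, and of the upper layers, Krt1 with Krt10. Among the 15 keratins of the hair shaft and nail, Krt84 alone passed the filter. Of the wound and appendage keratins (Krt6a, Krt6b, Krt16, Krt17, Krt42 and Krt75, besides Krt79), the highest value was 0.926 FPKM for Krt75 in dKO library 2.

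Summed over the family, keratin RNA was 104.6 ± 24.0 FPKM in dKO libraries and 36.2 ± 1.91 FPKM in controls (SD, n = 3 each), a ratio of 2.89. Type II keratins made up most of the difference, at 79.1 ± 21.7 FPKM in dKO libraries and 18.7 ± 0.215 FPKM in controls. Type I keratins summed to 25.6 ± 2.36 FPKM in dKO libraries and 17.5 ± 1.95 FPKM in controls. Type II keratins thus held 75.4%, 78.4% and 71.3% of keratin FPKM in dKO libraries 1 to 3, against 50.6%, 55.0% and 49.5% in controls 1 to 3. Krt12 and Krt84 together held 17.7% to 19.9% of keratin FPKM in dKO libraries and 71.7% to 74.0% in controls. Krt73 and Krt79 together held 37.2% to 43.4% in dKO libraries and 1.95% to 4.12% in controls. These sums and shares follow the symbol rule and so leave out 1700011A15Rik, which RefSeq names Krt88, a type II keratin. Its means were 14.2 FPKM in dKO libraries and 9.22 FPKM in controls. Counting it would raise both type II sums and lower the shares of Krt12 with Krt84 and of Krt73 with Krt79. No test is given for these sums, since the family was chosen on this comparison.

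**Figure D2:**
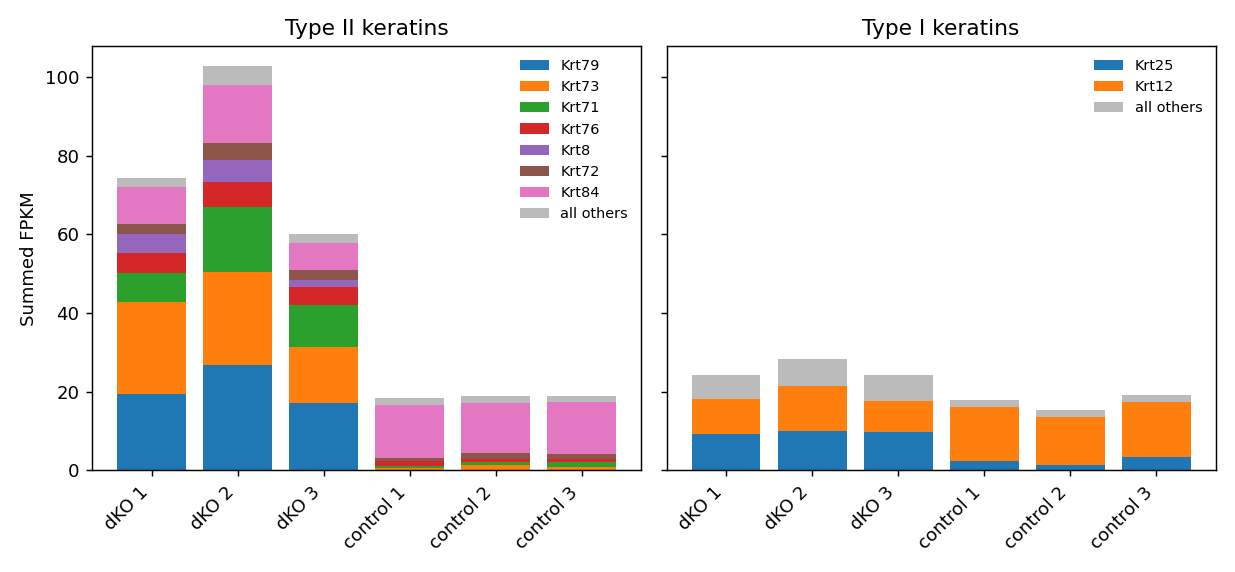
Summed FPKM of type II (left) and type I (right) keratins in each library, stacked by gene with the remaining members in grey. Krt79, Krt73 and Krt71 fill most of the type II columns in dKO libraries, and Krt84 fills most of them in controls, while Krt12 is present in every library.

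The order of genes on the chromosomes was taken from RefSeq for build GRCm38.p6, not the build mm9 of the deposited values, so no coordinates of the clusters are given. On chromosome 15 Krt71, Krt74, Krt72 and Krt73 stand next to one another, and Krt76, Krt79 and Krt8 follow further along, each beside keratins with no call. On chromosome 11 Krt25 and Krt27 stand at one end of the cluster with Krt26 between them and Krt28 after Krt27, and Krt222 lies before Krt25 with Krt24 between them. The rest of that cluster, from Krt10 to Krt42, held no keratin called higher. Near-identical copies may divide reads between some neighbours: 10.9% of Krt25 and 11.1% of Krt27 stretches are shared with other genes, chiefly each other, against 1.97% for Krt71 and 1.32% for Krt73. Krt8, Krt76 and Krt80 each overlap a predicted gene on the other strand.

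**Figure D3:**
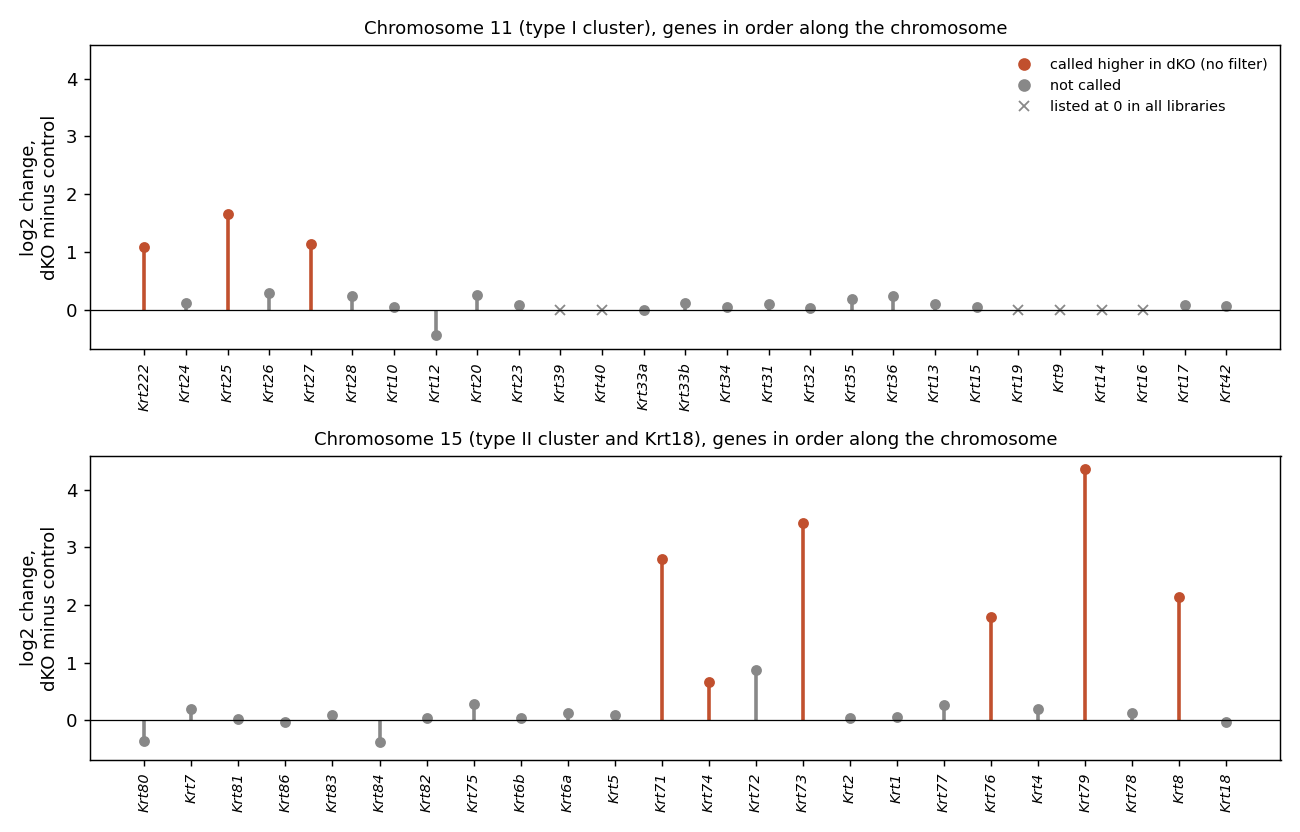
Log2 change (dKO minus control, log2(FPKM + 1), no filter) of each keratin in RefSeq order along chromosome 11 (top) and chromosome 15 (bottom). Red marks the 9 keratins called higher and crosses mark the 6 listed at 0; on chromosome 15 the called genes include 3 of the 4 adjacent sheath keratins and Krt79, the tallest.

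Non-keratin genes inside or beside the clusters were read in the same way. Of 34 such genes, 8 passed the filter. None was called higher (1 at an unadjusted p of 0.05) and 2 were called lower, beside 14.0% and 7.04% of all tested genes. The median log2 change of the 8 was -0.02. The genes called lower were Eif4b, a translation initiation factor (log2 change -0.52 ± 0.16, limma, adjusted p = 0.0453), and Spryd3 (-0.82 ± 0.20, adjusted p = 0.0202). The Spryd3 call was lost without control 1, 2 or 3 (adjusted p = 0.0518, 0.0960 and 0.0925). The Eif4b call was lost in 11 of the 16 alternatives. Of the 52 keratin-associated protein genes, which build the hair shaft matrix and some of which interrupt the chromosome 11 cluster, 36 were listed at 0 in all libraries and none passed the filter. With no filter none of the remaining 16 was called in either direction (1 higher at an unadjusted p of 0.05), where 9.88% of all genes were called higher and 2.68% lower. Read under a symbol outside the rule, 1700011A15Rik, which RefSeq names Krt88, had 11.7, 23.6 and 7.26 FPKM in dKO libraries against 9.20, 9.83 and 8.62 FPKM in controls, and its groups overlapped.

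Transcription factors of epithelia and hair were examined beside the keratins. Of 22 listed, 16 passed the filter, 9 were called higher and 1 lower, where 14.0% and 7.04% of all tested genes were. Of the 9, 5 (Elf3, Grhl3, Hoxc13, Klf5 and Msx2) had no control library at 1 FPKM and passed the filter on their dKO libraries alone, so the median log2 change of the 16, 1.04, is no measure of the list. With no filter 10 of 22 were called higher and 1 lower, where 9.88% and 2.68% of all genes were, and the median was 0.52 beside 0.029 over all genes above 0. Tfap2a, a factor of surface ectoderm, had 26.0, 16.0 and 14.3 FPKM in dKO libraries against 1.57, 1.46 and 1.49 FPKM in controls (log2 change 2.94 ± 0.25, limma, adjusted p = 7.61e-05). Msx2, a homeobox factor of hair and limb, had 9.84, 7.74 and 4.91 FPKM against 0.347, 0.0386 and 0.0161 FPKM in controls (2.87 ± 0.26, adjusted p = 0.000119). Klf4, a factor of the epidermal barrier, had 20.2, 24.95 and 21.3 FPKM against 2.01, 2.60 and 2.55 FPKM in controls (2.77 ± 0.19, adjusted p = 3.31e-05). In each of these 3 genes every dKO library lay far above every control. Elf3, Grhl3, Hoxc13, Klf5, Ovol1 and Tfap2b were the others called higher. Ovol1 lost the call without control 1 or 2 (limma, adjusted p = 0.0549 in each), and Tfap2b without control 2 or 3 (0.0733 and 0.0662). Under quantile normalization Tfap2b and Klf5 lost theirs (limma, adjusted p = 0.0979 and 0.0954). Ehf, an ETS factor of epithelia, was called lower, at 35.5, 36.7 and 41.0 FPKM in dKO libraries against 60.7, 67.0 and 58.3 FPKM in controls (-0.70 ± 0.14, adjusted p = 0.00892), a call lost without control 2 (adjusted p = 0.0661). Trp63, a factor that stratified epithelia need, was at 31.0 to 34.8 FPKM in dKO libraries and 33.2 to 37.4 FPKM in controls and had no call (-0.09 ± 0.14, adjusted p = 0.683).

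The structures that anchor keratin filaments held calls in both directions. Of 16 desmosomal genes 7 passed the filter, and 1 was called, a share close to the 14.0% of all tested genes called higher. This was Perp, a desmosomal membrane protein, at 7.66, 6.17 and 6.37 FPKM in dKO libraries against 1.20, 0.945 and 1.40 FPKM in controls (1.83 ± 0.20, limma, adjusted p = 0.000311). The median change of the 7 was -0.08. Dsp, the plakin that ties keratins to the desmosome, had 3.03, 1.88 and 2.75 FPKM in dKO libraries against 1.71, 1.60 and 0.823 FPKM in controls, with no call (0.59 ± 0.23, adjusted p = 0.106). With no filter Dsc3, a desmosomal cadherin, was also called higher, at 0.964 to 1.68 FPKM in dKO libraries against 0.0126 to 0.161 FPKM in controls (1.07 ± 0.14, limma, adjusted p = 0.00813). The faint Dsg4 was called too (limma, adjusted p = 0.0326), which makes 3 of 16 called higher, beside 9.88% of all genes. Of 8 hemidesmosome and plakin genes 3 passed, and the tetraspanin Cd151 was called lower (-1.04 ± 0.22, adjusted p = 0.0110), a call lost without control 1 (adjusted p = 0.0540). With no filter 3 of the 8 were called higher (Col17a1, Evpl and Ppl) and 2 lower (Cd151 and the integrin Itgb4), where 9.88% and 2.68% of all genes were. Itgb4 was at 0.0757 to 0.235 FPKM in dKO libraries and 0.717 to 2.08 FPKM in controls (-1.09 ± 0.23, limma, adjusted p = 0.0353). Of 18 cornified envelope genes in the table none passed. With no filter Tgm1 and Klk5 were called higher and none lower (1 at an unadjusted p of 0.05), beside the same 9.88% and 2.68% of all genes.

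Other intermediate filament genes were examined beside the keratins. Of 17, 8 passed the filter, with 2 called higher, none lower (1 at an unadjusted p of 0.05), beside 14.0% and 7.04% of all tested genes. With no filter 4 of 17 were called higher and none lower, where 9.88% and 2.68% of all genes were. The median change was then 0.29, beside 0.029 over all genes above 0. Nes, the filament of neural progenitors, had 3.99, 4.07 and 5.83 FPKM in dKO libraries against 0.956, 0.679 and 0.346 FPKM in controls, and so passed the filter on its dKO libraries alone (1.76 ± 0.22, limma, adjusted p = 0.000751). Nefh, the heavy neurofilament, had 11.9, 10.9 and 10.2 FPKM in dKO libraries against 4.66, 4.46 and 4.34 FPKM in controls (1.12 ± 0.18, adjusted p = 0.00252). Nefl and Nefm, the light and medium neurofilaments, were at 0.511 to 1.06 FPKM and 0.568 to 1.62 FPKM in dKO libraries, were listed at 0 in every control, and were called with no filter (limma, adjusted p = 0.0105 and 0.0216). Vim, the filament of mesenchyme and of granulosa cells, stayed at or under 0.164 FPKM in dKO libraries and 0.0218 FPKM in controls.

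**Figure D4:**
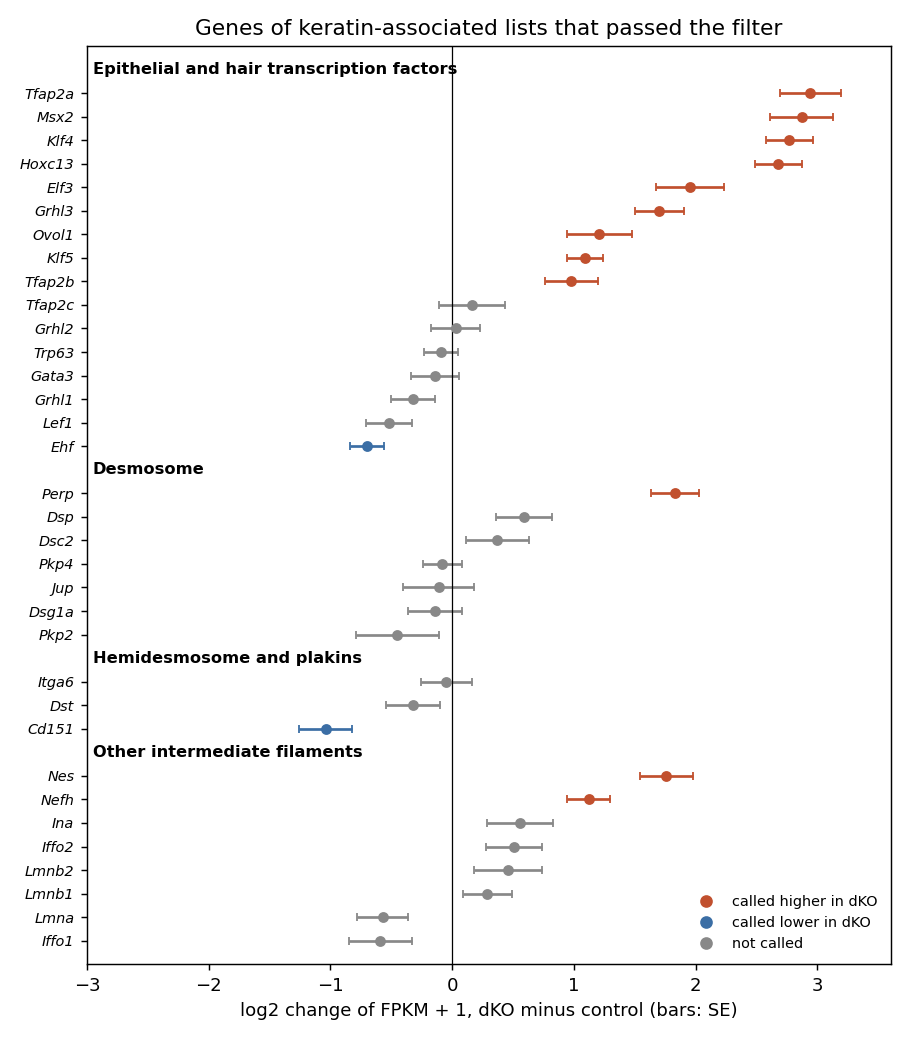
Log2 change (dKO minus control, log2(FPKM + 1), bars SE, 3 libraries a group) of the genes that passed the filter in 4 lists beside the keratins. The 9 factors called higher stand at the top, from Tfap2a at 2.94 to Tfap2b at 0.98, while Perp alone stands out among 7 desmosomal genes.

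Markers of cells that could adhere to oocytes were read alongside. Of 14 granulosa and cumulus markers 7 passed the filter, 4 were called higher (Ptgs2, Fshr, Inhba and Has2) and none lower (1 at an unadjusted p of 0.05), where 14.0% and 7.04% of all tested genes were. All 4 had no control library at 1 FPKM and so passed on their dKO libraries alone. Cyp19a1, the most abundant of the 14 in controls, went the other way and was the 1 lower. It was at 5.23 to 6.19 FPKM in dKO libraries and 7.60 to 11.3 FPKM in controls, with no overlap (-0.67 ± 0.21, limma, adjusted p = 0.05004). With no filter Gja1 was called higher (limma, adjusted p = 0.0194). Fshr, the receptor for follicle-stimulating hormone, was at 9.24 to 11.6 FPKM in dKO libraries and 0.146 to 0.179 FPKM in controls, and Ptgs2, a prostaglandin synthase, at 13.7 to 17.6 FPKM and 0.515 to 0.728 FPKM. Inhba lost its call without control 1 or 2 (limma, adjusted p = 0.0757 and 0.0842) and Has2 without control 2 or 3 (0.0682 and 0.0699). Under quantile normalization Inhba and Has2 both lost it (limma, adjusted p = 0.1415 and 0.271), and Inhba also with no filter (0.0712). Amh was at 0.122 to 0.684 FPKM in dKO libraries and 0.0432 to 1.04 FPKM in controls, and Foxl2 at 0.0769 to 0.586 FPKM in dKO libraries and 0 to 0.0972 FPKM in controls, and neither had a call. The whole list summed to 39.4 to 45.4 FPKM in dKO libraries and 13.1 to 17.4 FPKM in controls.

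Ovarian surface epithelium carries Krt7, Krt8, Krt18 and Krt19, of which none but Krt8 was above 0.282 FPKM. Its non-keratin markers summed to 86.9 to 119.7 FPKM in dKO libraries and 97.7 to 122.6 FPKM in controls, almost all of it Cdh1, which had no call. Of the 2 markers that passed the filter, 1 was called higher and none lower, beside 14.0% and 7.04% of all tested genes. The call was that of Epcam (2.65 ± 0.24, limma, adjusted p = 0.000137), which passed the filter on its dKO libraries alone. Upk3b was at 0.146 to 0.372 FPKM in dKO libraries and 0.913 to 2.86 FPKM in controls, with no overlap and an adjusted p of 0.0555 with no filter (limma), and Msln was at or under 0.0337 FPKM. Of 9 keratinocyte and hair markers without keratins Trp63 alone passed and Lor was listed at 0 in all. With no filter 2 of the 8 above 0 were called higher (Dsc3 and Col17a1) and none lower, where 9.88% and 2.68% of all genes were. Col17a1, a hemidesmosomal collagen, was at 0.279 to 0.589 FPKM in dKO libraries and 0.00603 to 0.0341 FPKM in controls (limma, adjusted p = 0.0233). The whole list summed to 33.1 to 37.2 FPKM in dKO libraries and 33.7 to 38.0 FPKM in controls. Almost all of it was Trp63, so the sum says little of the other members.

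Theca and stroma markers summed to 2.81 to 3.85 FPKM in dKO libraries and 0.754 to 1.42 FPKM in controls. None of the 10 passed the filter. With no filter Col1a1, Dcn and Pdgfra were called higher (limma, adjusted p = 0.00644, 0.0142 and 0.00407) and none lower, where 9.88% and 2.68% of all genes were. Endothelial markers summed to 19.5 to 26.6 FPKM in dKO libraries and 24.2 to 33.1 FPKM in controls. Most of this was Pecam1, which was called lower (-0.72 ± 0.19, limma, adjusted p = 0.0280). Of the 2 endothelial markers that passed the filter it was the 1 called, beside 14.0% of all tested genes called higher and 7.04% lower. That call was lost without dKO library 1 (0.0622), control 1 (0.118) or control 3 (0.130), with no filter (0.0505) and with array weights (0.0766). Kdr, Tek and Cldn5 went the other way but had no call. In each, every dKO library lay above every control, as in 22.3% of all genes above 0. The dKO values of Kdr, Tek and Cldn5 were 0.736 to 1.89, 5.08 to 5.65 and 0.147 to 1.29 FPKM. Their control values were 0.325 to 0.552, 3.22 to 4.49 and 0 to 0.0260 FPKM. Cdh5 was at or under 0.0317 FPKM. Blood and immune markers summed to 1.41 to 3.56 FPKM in dKO libraries and 0.551 to 2.04 FPKM in controls. The part of these cells in the keratin values was not tested.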

How the data were processed

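RNA was measured in 3 dKO and 3 control libraries, each from a separate female. The authors deposited FPKM values with a column for each library. The submitters' processing notes name the build mm9, Cufflinks 2.0.2 and TopHat2 2.0.11 but no order or role. How genes were annotated and whether strand was used is not given in the sources used here.

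The table has 24525 rows, of which 497 repeated a symbol with all its values and were removed. Genes at 1 FPKM or more in at least 3 of the 6 libraries were kept (11334). The values were tested as log2(FPKM + 1) with limma 3.58.1 under R 4.3.3 (lmFit, then eBayes with trend, two-sided, no block), with Benjamini-Hochberg adjustment over all kept genes at 0.05. Changes on the log2(FPKM + 1) scale understate those of low genes. The fit was tested on simulated data. Sums of FPKM over the table were 278701 to 309549 in dKO libraries and 318273 to 327480 in controls.

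The rule named every keratin that passed the filter and every other that reached 1 FPKM in a library, both with all values here, and from each companion list the called members up to the 3 largest each way. Other genes, such as Krt26, Krt28, Dsp, Vim, Upk3b and Trp63, were named after their values were seen. Members, lists and sites of expression were chosen with earlier results of these data known. Per the lane code in the labels' description field, same-numbered libraries shared a flow-cell lane, which pairs them, and their deviations from group means correlated at 0.147, 0.107 and 0.0637. Promoters and gene order come from RefSeq (GRCm38.p6), and shared 50-base stretches from GENCODE transcripts.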

Additional observations from a re-analysis of the deposited data

How the results depend on the processing

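Alternatives were other pseudocounts, filters and scalings, no trend, array weights, the replicate block, removal of each library in turn and, chosen after seeing the data, a centring that subtracts each library's mean log2 value. The count of keratins called higher was 8 as reported and 7 to 9 in the alternatives, except that a filter of 5 FPKM left 4 (1 of type I, 3 of type II) because fewer genes were tested. It also left 655 genes called higher over the whole table, of 1587. Krt8, Krt25, Krt27, Krt71, Krt73, Krt76 and Krt79 passed the threshold in every alternative that tested them. Krt27 did so only at the edge under quantile normalization (log2 change 0.62, limma, adjusted p = 0.04996). Without dKO replicate 2, and without each control, 7 were called, Krt72 being the one lost. The count of keratins called lower, 0 as reported, was 1 under quantile normalization (Krt80), 1 under centring (Krt12) and 0 to 2 over the removals (Krt12 and Krt84 without dKO replicate 2). The cause was not tested. Genes called lower over the whole table, 798 as reported, were 1276 under median-ratio scaling, 1572 under centring, and 231 to 1465 over the removals, with 258, 262 and 231 without controls 1, 2 and 3 and 1465 without dKO replicate 2. Of all calls, 66.5% were higher as reported, against 52.6% under quantile normalization, 54.4% under median-ratio scaling and 48.0% under centring, where the median change of all genes was -0.125. The replicate block left 8 keratins called higher and 0 lower, changed no keratin call, and gave Rnf2 a log2 change of -2.37. It ended the calls of Eif4b and Bmp15 (limma, adjusted p = 0.0688 and 0.0740). The log2 change of Rnf2 kept its direction and call in every alternative. Values under 1 FPKM rest on few fragments.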
